A study of Mus musculus with 4 samples.

Results

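The cells described here are mouse bone marrow cells that carried RNA of the granule enzyme gene Mpo together with F13a1 and Ly6c2, a pair of genes of the monocyte lineage. A cell was taken when it had at least 10 Mpo UMIs per 10000 UMIs, at least 1 F13a1 UMI, at least 3 Ly6c2 UMIs and fewer than 20 UMIs per 10000 of the secondary granule genes Ltf, Camp and Ngp summed, where a UMI is 1 counted RNA molecule. Cells were considered from 3000 UMIs and 200 detected genes upward, with no more than 10% of UMIs from mitochondrial genes. Of the 13539 such cells, 1984 met the rule. They came from 2 Idh1-R132H libraries, with 518 and 529 members, and 2 Idh1-WT libraries, with 579 and 358 members.

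Each library came from 1 mouse of a transplant study. Donor mice had been given tamoxifen for 5 days to recombine an EYFP reporter and, in the Idh1-R132H group, 1 allele of the R132H form of Idh1, a cytosolic isocitrate dehydrogenase. After 2 weeks EYFP+ marrow cells lacking lineage markers were moved into irradiated mice with no helper marrow, and the marrow of these hosts was taken at 16 weeks; both groups carried the reporter and were sorted on it. From each mouse 4000 cells of each of 3 gates were pooled in 1 tube: CD45.1+ marrow cells, LSK cells (lineage-negative, Sca1+, cKit+, the stem cell gate) and LK cells (lineage-negative, cKit+, the progenitor gate). The shares of cell types in a library therefore follow the pooling as well as the marrow. The Cre driver and the age, sex and strain of the mice are not given in the sources used here. The labels name no difference between the groups other than the Idh1 allele, and nothing in them says that the mice of a group shared a donor or a day.

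Granulocyte-monocyte progenitors give rise to neutrophils and to monocytes. The transcription factors Irf8 and Klf4 drive the monocyte fate, while Gfi1 and Cebpe drive the neutrophil fate, and Irf8 and Gfi1 oppose each other. Monocyte progenitors still make azurophil (primary) granule enzymes such as Mpo, elastase (Elane), proteinase 3 (Prtn3) and cathepsin G (Ctsg), which neutrophil progenitors also make, and monocytes later switch these genes off while Ccr2, Csf1r, Ly86 and lysozyme (Lyz2) rise.

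The libraries held between 40364701 and 56353466 UMIs. The member sums on which all tests rest held 11452261 and 11098054 UMIs in Idh1-R132H libraries, against 13558706 and 8195390 in Idh1-WT libraries, with a median of 21554.5 and 20462 UMIs per member against 23250 and 22738. Members with Xist but no Y-linked RNA made up 53.7% and 38.0% of Idh1-R132H members, against 80.3% and 57.5% of Idh1-WT members, and those with Y-linked RNA but no Xist made up 31.3% and 42.9% against 5.35% and 21.5%. Every library held cells of both kinds. Both Idh1-R132H libraries had a lower share with Xist alone than both Idh1-WT libraries, but libraries of the same group also differed widely. Genotype results for several genes are given within each kind as well. Members with both Xist and Y-linked RNA made up 9.07% and 8.70% of Idh1-R132H members and 2.59% and 7.26% of Idh1-WT members. Whether these were doublets or carried free RNA was not tested. Between any 2 libraries 0 or 1 member barcodes were shared, of 8 to 21 shared barcodes among all kept cells.

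The rule used the levels of Mpo, F13a1, Ly6c2, Ltf, Camp and Ngp, so these 6 genes are described and not tested. F13a1 (chromosome 13, 36867178 to 37050244, minus strand, GRCm38), which encodes the A chain of clotting factor XIII, had a median of 4 UMIs per member, and 495 members (24.9%) sat at the limit with exactly 1. Ly6c2 (chromosome 15, 75108158 to 75111970), which encodes the Ly6C surface antigen, had a median of 60 UMIs, with 5.80% of members under 6. Mpo (chromosome 11, 87793581 to 87804413) had a median of 87.7 UMIs per 10000, with 2.37% of members under 20. Just outside the limit on F13a1 lay 1305 cells that met the Mpo, Ly6c2 and granule conditions with 0 F13a1 UMIs, and just outside the limit on Ly6c2 lay 173 cells with F13a1 and fewer than 3 Ly6c2 UMIs. Reads of Ly6c2 and its near-identical neighbour Ly6c1 cannot be told apart where the sequences match; Ly6c1 was listed at 0.524 and 1.35 CPM in Idh1-R132H members and 1.03 and 1.10 CPM in Idh1-WT members, where CPM is counts per 1000000 of the members' summed UMIs.

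Irf8 (chromosome 8, 120736358 to 120756694) was not part of the rule and served to check the monocyte label. With each cell thinned to 3000 UMIs, an Irf8 UMI was found in 51.9% and 52.7% of Idh1-R132H members and in 48.9% and 47.8% of Idh1-WT members. In erythroid cells with Klf1 or Gata1 RNA, which should lack the gene, the share was 2.99% and 2.5% in Idh1-R132H libraries and 2.25% and 0% in Idh1-WT libraries. Without thinning it was 80.1% and 85.4% of Idh1-R132H members and 79.8% and 76.8% of Idh1-WT members. The members were not all alike in this gene. With 10000 UMIs per member, 25.6% and 21.7% of Idh1-R132H members and 25.4% and 28.8% of Idh1-WT members had no Irf8 UMI, while 23.7% and 24.8% of Idh1-R132H members and 21.7% and 20.9% of Idh1-WT members had 6 or more. Since the members without Irf8 UMIs also had the most Cebpe and Gfi1 (given with the Irf8 bins), the label of a monocyte-committed progenitor did not cover the whole set, which is called Mpo F13a1 Ly6c2 cells here.

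The members stood between 3 neighbouring sets of cells. The 1305 Mpo Ly6c2 cells without F13a1 are the nearest. The 921 Mpo cells with neither F13a1 nor 3 Ly6c2 UMIs are a mixture that also carried basophil and eosinophil genes, with a mean of 553 CPM of Prg2, 459 CPM of Cpa3 and 467 CPM of Prss34, against 4.75, 6.81 and 6.42 CPM in members. Stem cell markers were also higher in this mixture, with Angpt1 at a mean of 53.3 CPM against 4.36 CPM in members. The 612 Mpo-low F13a1 Ly6c2 cells met the F13a1 and Ly6c2 conditions below the Mpo limit. Because the sets were cut from the same cells by expression, their differences are a description with no test. Median depth was 20462 to 23250 UMIs in members, against 19734 to 22528 in the cells without F13a1, 11659 to 13994 in the mixed Mpo cells and 5477 to 5905 in the Mpo-low cells.

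Many monocyte genes were higher in members than in the cells without F13a1, while 16 of 17 primary granule genes did not differ 2-fold in all 4 libraries. Irf8 was at 317 and 332 CPM in Idh1-R132H members and 305 and 297 CPM in Idh1-WT members. In the cells without F13a1 it was at 56.4 and 65.6 CPM in Idh1-R132H libraries and 52.3 and 58.1 CPM in Idh1-WT libraries. All 4 member values were above all 4 others. Klf4 (chromosome 4, 55527143 to 55532466), a zinc finger factor of the monocyte fate, averaged 24.2 CPM in members and 2.43 CPM in the cells without F13a1. Ly86 (chromosome 13, 37345208 to 37419036), which encodes the partner of the Toll-like receptor homologue Cd180, averaged 126 CPM against 19.0 CPM. Means were 37.3 against 8.75 CPM for Csf1r, the receptor of the monocyte growth factor, 42.3 against 8.30 CPM for Ccr2, the receptor by which monocytes leave marrow, and 345 against 69.7 CPM for the membrane protein gene Ms4a6c.

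**Figure D1:**
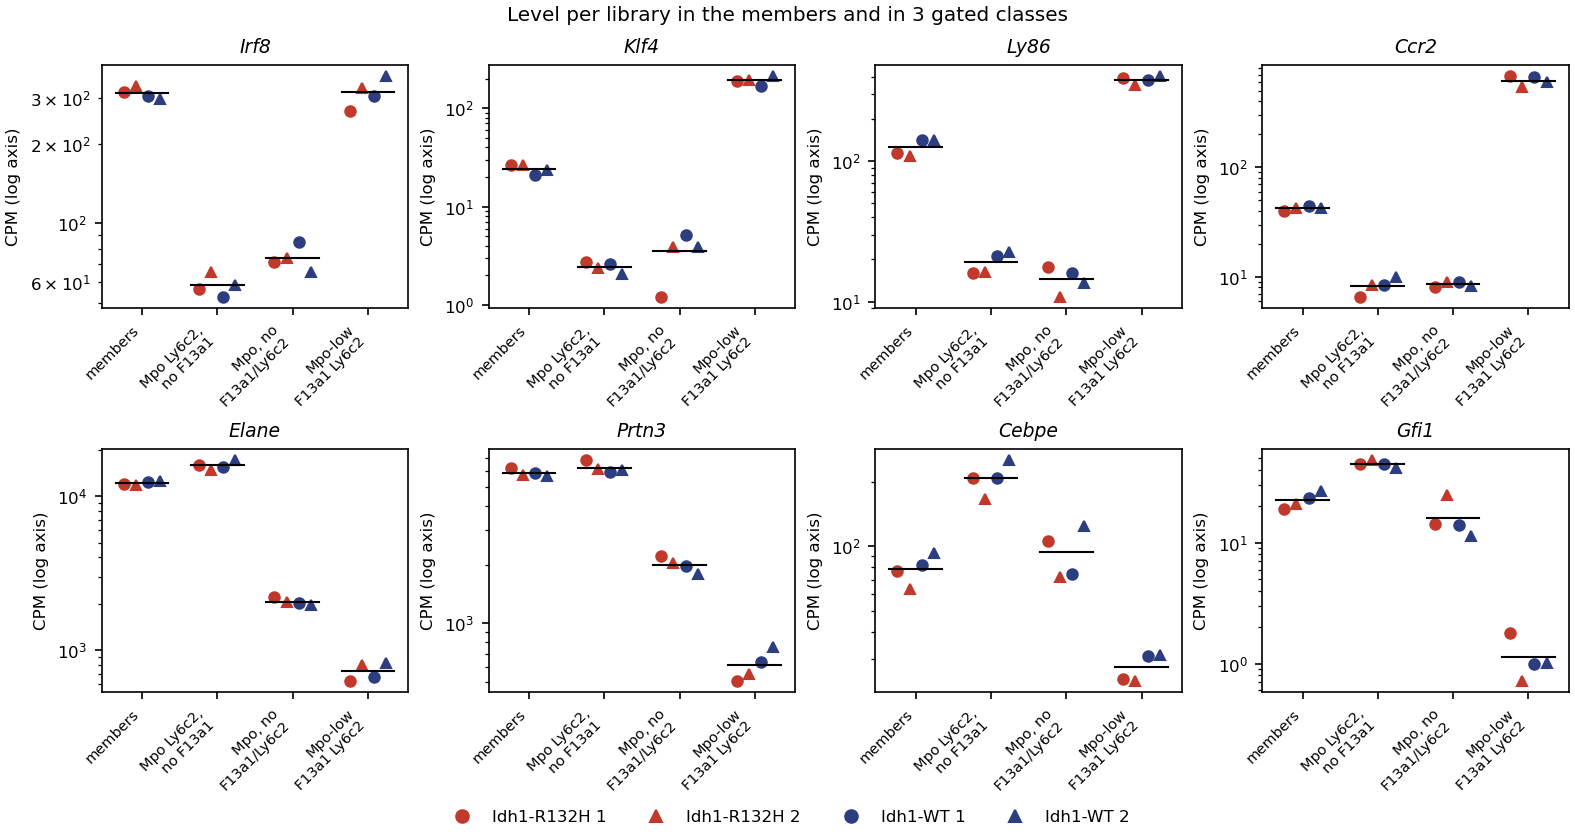
Level of 8 genes, in CPM on a log axis, in the members and the 3 neighbouring sets; each point is 1 library (red Idh1-R132H, blue Idh1-WT, circle replicate 1, triangle replicate 2) and the bar is the mean of 4. Irf8, Klf4, Ly86 and Ccr2 were higher in members than in both other Mpo sets in every library, while Elane and Prtn3 in members lay near the cells without F13a1 and far above the Mpo-low cells.

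Of 26 monocyte programme genes at 10 CPM or more, 13 were at least 2-fold higher in members than in the cells without F13a1 in all 4 libraries and 0 were lower. Among all 6168 genes compared, 39 (0.632%) were 2-fold higher and 10 (0.162%) 2-fold lower in this way. The 13 were Fcer1g, Ctss, Psap, Lgals3, Ccr2, Ly86, Emb, Pld4, Csf1r, Ms4a4c, Ms4a6c, Ms4a6b and Mpeg1, and the median log2 ratio of the list was 1.14, beside 0.02 over all genes. Of 8 monocyte fate factors, Klf4 and Irf8 were 2-fold higher, whereas Spi1 (PU.1), the factor both lineages need, averaged 288 CPM in members and 275 CPM in the cells without F13a1.

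Of the 17 primary granule genes 0 were 2-fold higher and 1 was lower, the granule membrane tetraspanin gene Cd63, at 338 CPM in members and 969 CPM in the cells without F13a1. Elane (chromosome 10, 79886247 to 79888215) averaged 12186 against 15840 CPM, Prtn3 (chromosome 10, 79874476 to 79883174) 5884 against 6264 CPM and Ctsg 5215 against 6654 CPM. Of 11 neutrophil fate factors 1 was 2-fold lower in members, Cebpe, the factor of secondary granule genes, at 78.9 against 208.5 CPM. Gfi1, a repressor of monocyte genes, averaged 22.5 against 44.9 CPM, and Cebpa, which both lineages use, 81.3 against 85.5 CPM. None of 14 secondary and tertiary granule genes was 2-fold different in all 4 libraries, nor any of 23 S phase and 22 G2 and M phase genes.

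Against the mixed Mpo cells, 12 of 27 monocyte programme genes were 2-fold higher in members in all 4 libraries and 0 lower, where 1.71% of 6377 genes were higher and 2.84% lower. In this comparison the granule genes also stood higher: 6 of 17 primary granule genes (Prss57, Prtn3, Elane, Hp, Ctsg and Ms4a3) were 2-fold higher and 1, Prg2, was lower. Elane averaged 12186 CPM in members and 2066 CPM in the mixed Mpo cells. All 6 basophil and mast cell markers compared were lower in members, and so were all 6 stem cell markers compared.

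Against the Mpo-low cells the order turned. There 31 of 35 monocyte programme genes were at least 2-fold lower in members in all 4 libraries and 1 was higher, Plac8, with 9.56% of 6496 genes lower and 3.17% higher. Lyz2 averaged 689 CPM in members and 30115 CPM in the Mpo-low cells. The fibronectin gene Fn1 averaged 3.0 against 475 CPM and the galectin gene Lgals3 67.1 against 2742 CPM. Klf4 averaged 24.2 against 191 CPM, whereas Irf8 was as high in members as in Mpo-low cells, at 313 against 316 CPM. Of 16 primary granule genes 12 were 2-fold higher in members and 1, Ctsc, was lower, with Ms4a3 at 1352 against 71.6 CPM. Of 6 class II presentation genes 5, and of 27 interferon-response genes 21, were 2-fold lower in members.

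Within the members, the monocyte genes Klf4 and Csf1r and the neutrophil factor genes Cebpe and Gfi1 ran in opposite directions along Irf8, which is described here with no test. Members were set in 4 bins by their Irf8 UMIs out of 10000 (0, 1 to 2, 3 to 5, and 6 or more); 15 and 13 Idh1-R132H members and 21 and 18 Idh1-WT members with fewer than 10000 UMIs were left out. Klf4 was at 3.93 and 3.79 CPM in Idh1-R132H members and 2.49 and 1.66 CPM in Idh1-WT members with 0 Irf8 UMIs. It was at 48.9 and 59.5 CPM in Idh1-R132H members and 44.4 and 62.5 CPM in Idh1-WT members with 6 or more. In each library the level was higher at every step.

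Csf1r was at 12.1 and 7.58 CPM in Idh1-R132H members and 10.2 and 7.47 CPM in Idh1-WT members in the lowest bin, and at 65.5 and 65.0 CPM in Idh1-R132H members and 53.4 and 58.2 CPM in Idh1-WT members in the highest. Cebpe ran the other way, at 186 and 156 CPM in Idh1-R132H members and 208 and 228 CPM in Idh1-WT members in the lowest bin, and at 19.7 and 21.7 CPM against 20.7 and 27.2 CPM in the highest. Gfi1 was at 40.0 and 44.3 CPM in Idh1-R132H members and 49.7 and 56.4 CPM in Idh1-WT members in the lowest bin, and at 7.70 and 6.30 CPM against 6.02 and 11.8 CPM in the highest. For both neutrophil factors the largest step lay between 0 and 1 to 2 Irf8 UMIs.

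The granule protease genes Elane and Prtn3 were lower in members with Irf8 UMIs than in members without. Elane was at 18970 and 18976 CPM in Idh1-R132H members and 19838 and 20902 CPM in Idh1-WT members with 0 Irf8 UMIs, and at 8980 and 8741 CPM against 8972 and 7830 CPM with 6 or more. Prtn3 was at 8038 and 7475 CPM in Idh1-R132H members and 7863 and 7428 CPM in Idh1-WT members in the lowest bin, and at 5495 and 5159 CPM against 5216 and 4893 CPM in the highest. Most of this difference also lay in the first step: from 1 to 2 UMIs upward Prtn3 stayed between 4866 and 5694 CPM in every library. Spi1 and Cebpa stayed level, at 237 to 341 CPM and 71.3 to 91.7 CPM over all bins and libraries.

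**Figure D2:**
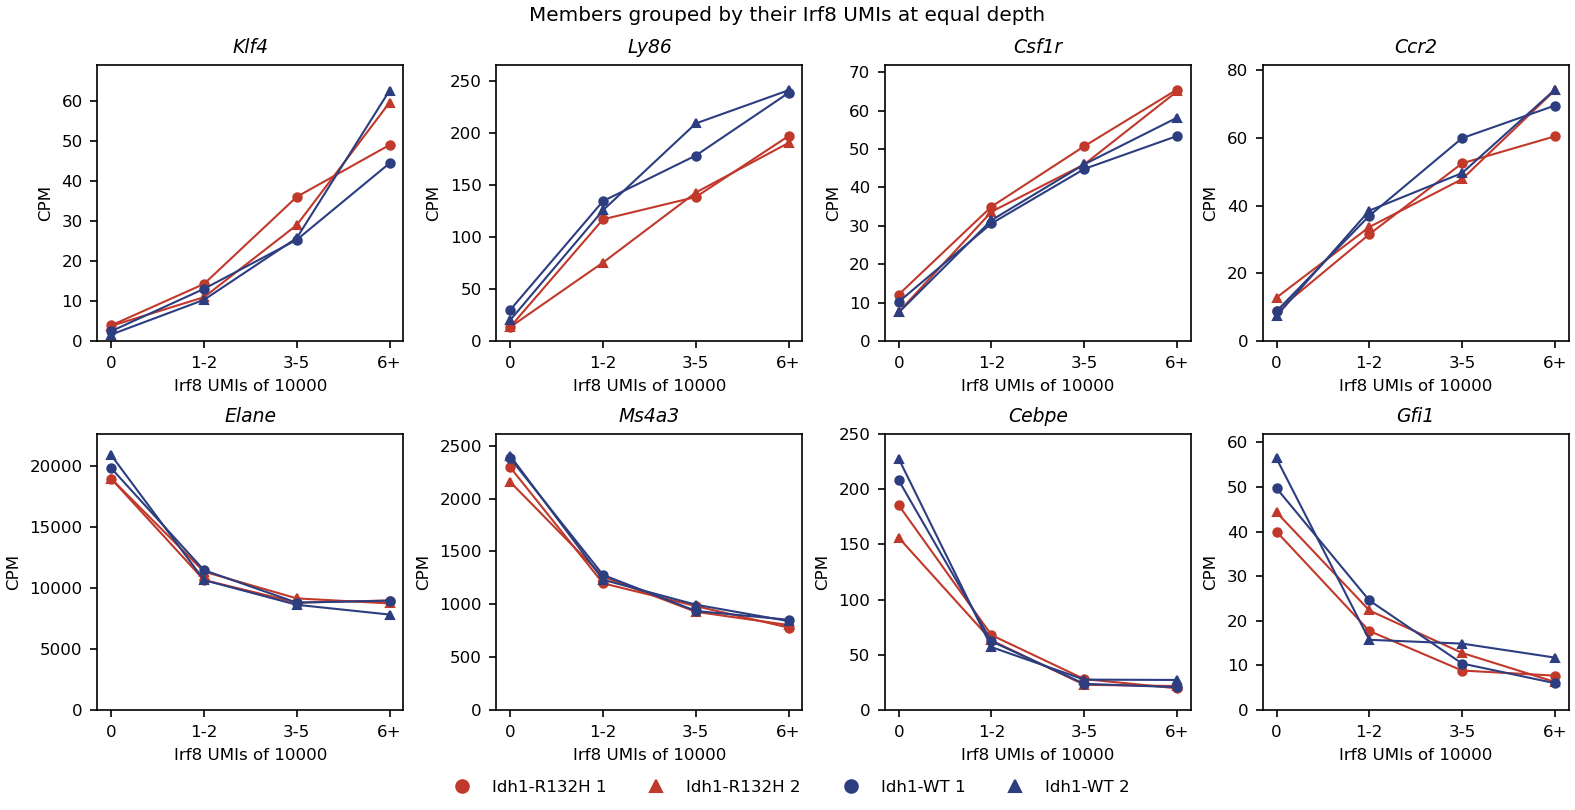
CPM of 8 genes (linear axis from 0) in members grouped by their number of Irf8 UMIs out of 10000; each line is 1 library (red Idh1-R132H, blue Idh1-WT, circle replicate 1, triangle replicate 2). The monocyte genes of the upper row were higher, and the granule and neutrophil factor genes of the lower row lower, at 6 or more Irf8 UMIs than at 0 in all 4 libraries, with the steepest step of the lower row between 0 and 1 to 2 UMIs.

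In the bin without Irf8 UMIs Cebpe and Ly86 were near the levels of the cells without F13a1. Elane and Prtn3 were not, as in every library this bin lay above the means of those cells given earlier. Cebpe averaged 208.5 CPM and Ly86 19.0 CPM in the cells without F13a1, and the members of the lowest Irf8 bin had 156 to 228 CPM of Cebpe and 13.6 to 30.1 CPM of Ly86. F13a1 itself, which the rule used, was lowest there, at 78.8 to 92.1 CPM, and was at 287 to 364 CPM in the highest bin. The proliferation gene Mki67 was at 47.5 to 50.2 CPM in the lowest bin and at 77.1 to 93.6 CPM in the highest.

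The level of Mpo ordered the members in the opposite sense. In the lowest quartile of Mpo, under 65.7 UMIs per 10000, Irf8 was at 443 to 484 CPM over the 4 libraries, Ly86 at 188 to 220 CPM, Cebpe at 17.4 to 24.8 CPM and Elane at 4155 to 4851 CPM. In the highest quartile, above 112.2 UMIs per 10000, Irf8 was at 79.0 to 151 CPM, Ly86 at 24.5 to 49.1 CPM, Cebpe at 145 to 221 CPM and Elane at 20095 to 21610 CPM. Each of the 4 genes kept 1 direction through the quartiles in their means over libraries.

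The shares of members overlapped between the genotypes. Members were 15.7% (exact 95% binomial interval 14.5 to 17.0%) and 13.8% (12.7 to 14.9%) of kept cells in Idh1-R132H libraries, and 16.5% (15.3 to 17.7%) and 12.4% (11.2 to 13.7%) in Idh1-WT libraries. The means were 14.7 ± 1.36% and 14.5 ± 2.86% (SD, n = 2 each), and a two-sided exact permutation test gave p = 1.0. Of the Mpo-bearing cells alone the share was 47.1% and 41.8% in Idh1-R132H libraries, against 49.9% and 41.8% in Idh1-WT libraries (exact permutation p = 0.667). With 2 libraries a group this test cannot go below 0.33, and leaving out a single library turned the sign of both differences. The intervals cover counting error only.

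The level of Irf8 in the member sums was 317 and 332 CPM in Idh1-R132H libraries and 305 and 297 CPM in Idh1-WT libraries, a log2 change of 0.12 ± 0.04 (SE) that did not pass the test across all genes (edgeR quasi-likelihood, adjusted p = 0.396). Klf4 (log2 change 0.26, adjusted p = 0.404), Csf1r (0.24, 0.362), Cebpe (-0.30, 0.304) and Gfi1 (-0.30, 0.381) likewise did not pass in that edgeR test, although the groups did not overlap in any of them. Without Idh1-R132H replicate 1, where the lone Idh1-R132H library is assumed to vary like the Idh1-WT pair, Cebpe passed (-0.43, edgeR adjusted p = 0.00846); without any other single library its adjusted p in edgeR was 0.0935 to 0.726. Such separation was common: 40.7% of 10659 genes tested had groups that did not overlap.

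Between genotypes, 34 of 10659 genes passed an adjusted p of 0.05 in the members (0.319%; 11 rose, 0.103%, and 23 fell, 0.216%, in Idh1-R132H members), and 1017 had an unadjusted p under 0.05. The count was 75 without Idh1-R132H replicate 1, 160 without Idh1-WT replicate 1 and 97 without Idh1-WT replicate 2, with 28, 28 and 32 of the 34 among them. It was 48 without Idh1-R132H replicate 2, with 26 of the 34. Each of these fits sees spread only between the 2 libraries of the other group and assumes that the lone library varies alike. A gene's own spread is also pulled toward a spread shared across genes. The weight of that shared spread (median prior degrees of freedom) was 26.6 to 138 in these fits, against 12.7 with all 4 libraries. The p-values measure the spread between these libraries. The 34 genes included Ly86 and Vim of the monocyte programme, Irf5 of the monocyte fate factors, and Slpi, S100a8 and Mcemp1 of the secondary and tertiary granule genes.

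Dmkn (chromosome 7, 30763756 to 30781063), which encodes the secreted protein dermokine, had the smallest adjusted p. It was at 58.2 and 62.6 CPM in Idh1-R132H members, against 139.8 and 130.2 CPM in Idh1-WT members. Both Idh1-R132H libraries were far below both Idh1-WT libraries, and the gene fell by 1.15 ± 0.07 on the log2 scale (SE, edgeR adjusted p = 4.7e-07). The difference was present in each Irf8 bin, with 80.7 and 97.0 CPM in Idh1-R132H members against 204 and 167 CPM in Idh1-WT members at 0 Irf8 UMIs, and 56.3 and 45.3 CPM against 144 and 131.8 CPM at 6 or more. In members with Xist and no Y-linked UMI Dmkn was at 54.7 and 76.9 CPM in Idh1-R132H libraries and 134.8 and 122.5 CPM in Idh1-WT libraries (log2 change -0.98, edgeR adjusted p = 0.211). In members with a Y-linked and no Xist UMI it was at 66.6 and 54.2 CPM against 161.5 and 152.9 CPM (-1.36, adjusted p = 7.7e-10). The groups stayed apart within both kinds of cell.

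Slpi (chromosome 2, 164354070 to 164389095), which encodes an inhibitor of neutrophil elastase, was at 437.8 and 496.0 CPM in Idh1-R132H members, against 606.9 and 630.7 CPM in Idh1-WT members. It fell by 0.39 on the log2 scale (edgeR adjusted p = 0.00841), a call lost without Idh1-WT replicate 1 (adjusted p = 0.19) or replicate 2 (0.192). Unlike the granule proteases, Slpi was higher where Irf8 was high: it was at 262 and 332 CPM in Idh1-R132H members and 334 and 312 CPM in Idh1-WT members at 0 Irf8 UMIs, and at 601 and 661 CPM against 854 and 895 CPM at 6 or more. The genotypes overlapped in the lowest bin and were apart in the others. In members with Xist alone it was at 407 and 450 CPM in Idh1-R132H libraries and 621 and 639 CPM in Idh1-WT libraries, and in those with Y-linked UMIs alone, at 508 and 525 CPM against 470 and 708 CPM, the groups overlapped.

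S100a8 (chromosome 3, 90668978 to 90670035), a subunit of the neutrophil protein calprotectin, was at 1602 and 1599 CPM in Idh1-R132H members, against 2018 and 2061 CPM in Idh1-WT members, and fell by 0.33 on the log2 scale (edgeR adjusted p = 0.000479). The genotypes were not apart in this direction in every Irf8 bin. At 0 Irf8 UMIs S100a8 was at 4106 and 3512 CPM in Idh1-R132H members and 5093 and 4919 CPM in Idh1-WT members, whereas at 3 to 5 it was at 732 and 977 CPM against 693 and 682 CPM, higher in Idh1-R132H members, and at 6 or more, with 453 and 823 CPM against 696 and 783 CPM, the groups overlapped. In members with at least 1 Irf8 UMI the log2 change was -0.08 (edgeR adjusted p = 0.955), a comparison added after the data were seen, and in members with at least 2 F13a1 UMIs it was -0.60 (adjusted p = 2.22e-09). It did not pass in members with Xist alone (log2 change -0.24, adjusted p = 0.758) or Y-linked UMIs alone (-0.33, adjusted p = 0.987), with the rule applied to cells thinned to 3000 UMIs (-0.24, adjusted p = 0.753) or in members below the median Mpo level (-0.11, adjusted p = 0.938). B cell marker cells, which should lack S100a8, had 905 and 1097 CPM of it in Idh1-R132H libraries and 944 and 792 CPM in Idh1-WT libraries, and with the free RNA subtracted the log2 change in members was -0.35 (adjusted p = 0.00016).

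Trem3 (chromosome 17, 48247777 to 48258841), which encodes a receptor of myeloid cells, was at 123 and 121 CPM in Idh1-R132H members, against 164 and 178 CPM in Idh1-WT members, and fell by 0.46 on the log2 scale (edgeR adjusted p = 0.00109). It was lower in Idh1-R132H members in every Irf8 bin. Ly86 was at 114.4 and 108.3 CPM, against 140.7 and 142.0 CPM, and fell by 0.33 (adjusted p = 0.0164). Its level was higher with more Irf8 UMIs in both genotypes, and in the highest bin it was at 197 and 191 CPM in Idh1-R132H members against 239 and 241 CPM in Idh1-WT members.

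**Figure D3:**
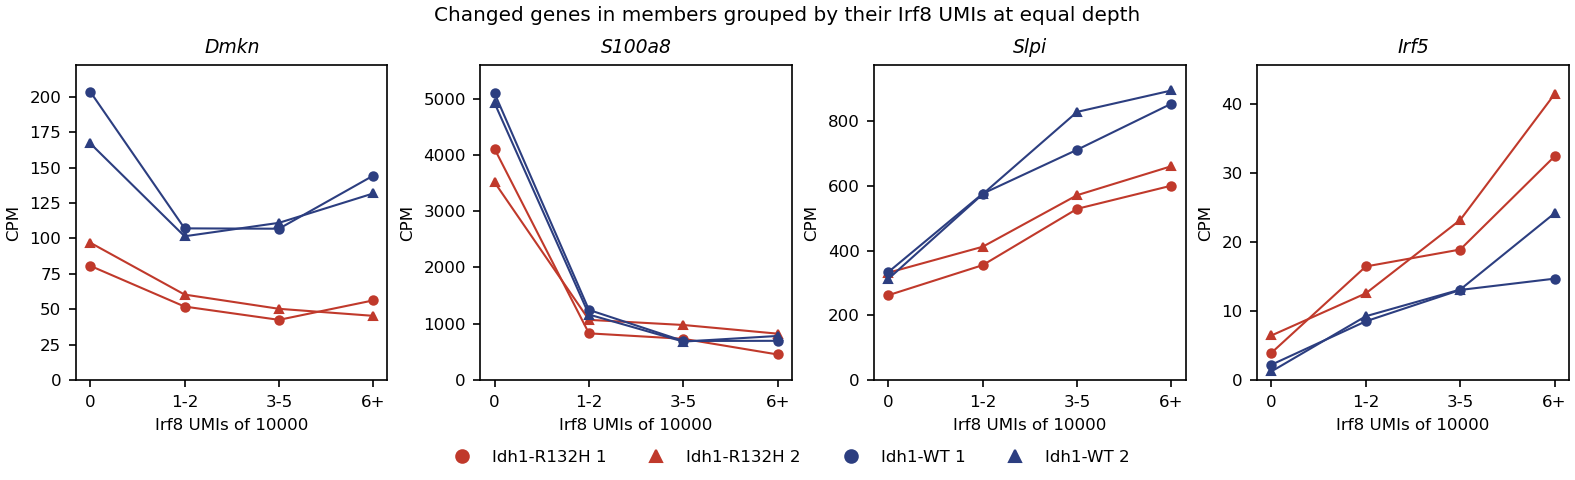
CPM of 4 genes called between genotypes (linear axis from 0) in members grouped by their number of Irf8 UMIs out of 10000; each line is 1 library (red Idh1-R132H, blue Idh1-WT, circle replicate 1, triangle replicate 2). Dmkn was lower and Irf5 higher in Idh1-R132H members in all 4 bins, S100a8 was lower at 0 and at 1 to 2 UMIs, and Slpi was lower from 1 to 2 UMIs upward.

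Irf5 (chromosome 6, 29526625 to 29541871), a transcription factor of inflammatory genes in monocytes and macrophages, rose in Idh1-R132H members. It was at 18.0 and 21.4 CPM there, against 10.3 and 11.8 CPM in Idh1-WT members (log2 change 0.87 ± 0.14 SE, edgeR adjusted p = 0.011). With 6 or more Irf8 UMIs it was at 32.4 and 41.4 CPM in Idh1-R132H members and 14.7 and 24.1 CPM in Idh1-WT members. In members with Xist alone it was at 22.1 and 20.7 CPM in Idh1-R132H libraries and 10.3 and 10.8 CPM in Idh1-WT libraries (adjusted p = 0.000308, edgeR). In those with Y-linked UMIs alone, at 13.3 and 20.6 CPM against 8.73 and 13.4 CPM, the groups overlapped (adjusted p = 0.863).

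Gt(ROSA)26Sor (chromosome 6, 113067428 to 113077333, minus strand) is the noncoding Rosa26 transcript, annotated as antisense, and whether the counting used strand is not given in the sources used here. It was at 24.6 and 20.2 CPM in Idh1-R132H members, against 8.78 and 11.3 CPM in Idh1-WT members, a rise of 1.20 on the log2 scale (edgeR adjusted p = 0.0016) that was of like size in each Irf8 bin, between 1.11 and 1.25. It also rose in the cells without F13a1 (0.93, adjusted p = 0.00546, edgeR) and in the mixed Mpo cells (1.12, adjusted p = 0.0235). In the Mpo-low cells the log2 change was 1.51, which did not pass (adjusted p = 0.262). In members with Xist alone it was 1.38 (adjusted p = 6.1e-06). With Y-linked UMIs alone it was 1.14, which did not pass (adjusted p = 0.427), though the groups did not overlap.

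**Figure D4:**
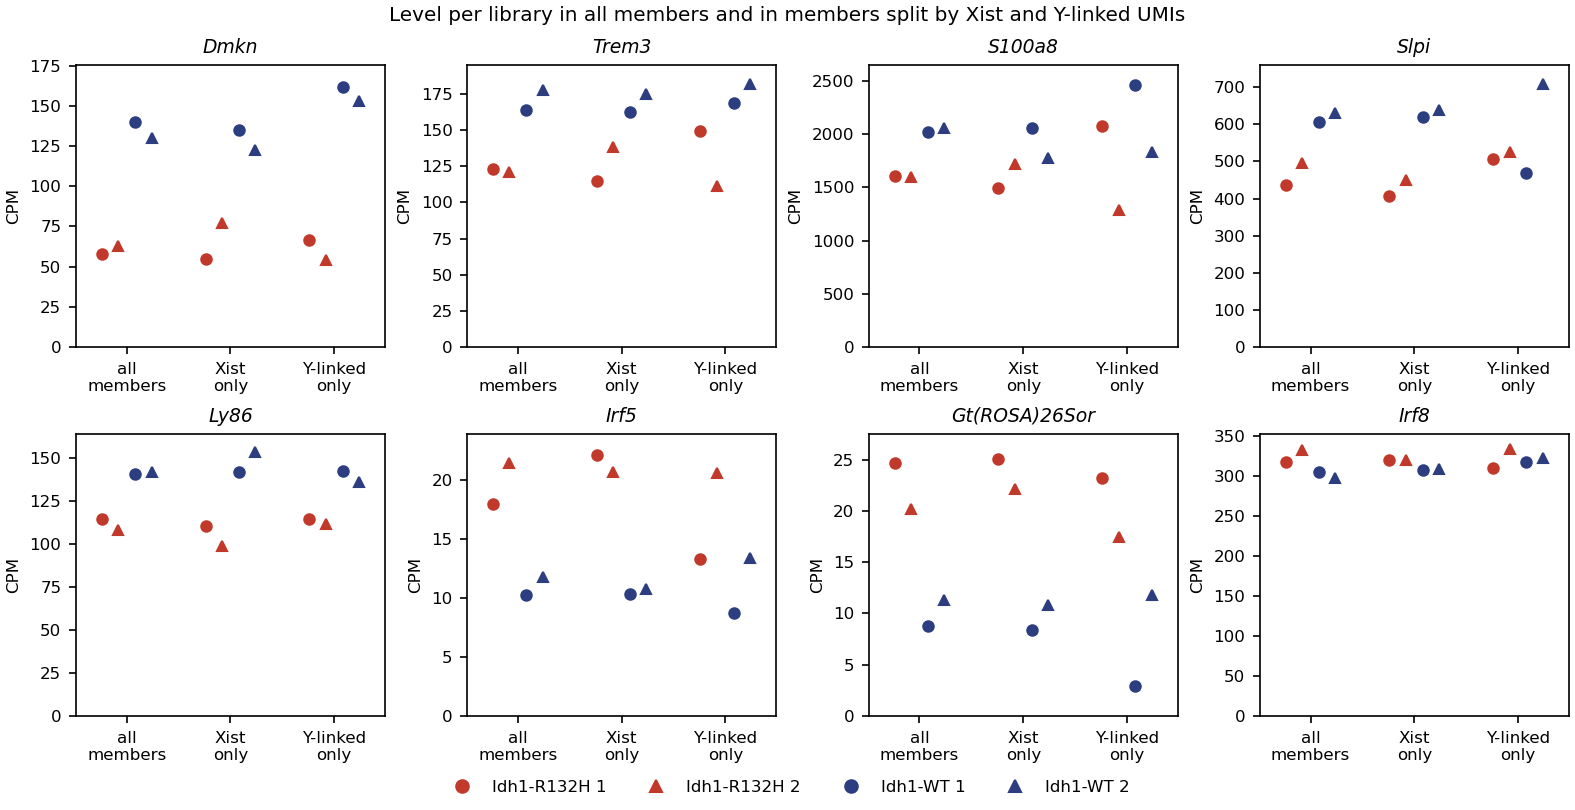
CPM of 8 genes (linear axis from 0) in all members, in members with an Xist UMI and no Y-linked UMI, and in members with a Y-linked UMI and no Xist UMI; each point is 1 library (red Idh1-R132H, blue Idh1-WT, circle replicate 1, triangle replicate 2). Dmkn and Ly86 were lower and Gt(ROSA)26Sor higher in Idh1-R132H in all 3 groups of cells, while Slpi, S100a8 and Irf5 overlapped in the cells with Y-linked UMIs and Irf8 was at 297 to 334 CPM throughout.

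The other genes that passed and are reported are named here after their values were seen, with edgeR adjusted p from 0.00441 for Slc4a8 to 0.0472 for Uty. Gdf3, a ligand of the TGF-beta family, was at 23.1 and 20.4 CPM in Idh1-R132H members, against 13.3 and 12.1 CPM in Idh1-WT members, and Pou2f2, which encodes Oct-2, at 34.3 and 31.5 against 23.5 and 21.1 CPM. Vim, which encodes the filament protein vimentin, was at 451 and 463 CPM in Idh1-R132H members and 400 and 397 CPM in Idh1-WT members, and the interferon-response gene Slfn2 at 28.8 and 35.9 against 21.6 and 22.3 CPM. The remaining rises were Akr1c13, Cdk5rap1, Atp9a, with 65 UMIs in Idh1-R132H members and 15 in Idh1-WT members, the Y-linked Uty and the ribosomal protein gene Rplp1, whose reads may be shared with its pseudogenes. The libraries differed in their share of members with Y-linked RNA. In members with Y-linked UMIs alone, a subset picked in part on Uty, the groups overlapped. There Uty was at 5.10 and 7.56 CPM in Idh1-R132H libraries and 7.28 and 5.04 CPM in Idh1-WT libraries.

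Among the falls, the lectin gene Mgl2 was at 26.2 and 25.2 CPM in Idh1-R132H members, against 40.1 and 38.8 CPM in Idh1-WT members, and the bicarbonate transporter gene Slc4a8 at 14.0 and 14.5 against 32.4 and 24.8 CPM. The glutathione transferase gene Gstm1 was at 640 and 621 against 754 and 778 CPM, and cytochrome c (Cycs) at 774 and 752 against 893 and 961 CPM. Fdps, an enzyme of sterol synthesis, was at 161 and 155 CPM in Idh1-R132H members and 188 and 211 CPM in Idh1-WT members. Mcemp1 was at 18.4 and 18.1 against 26.8 and 27.1 CPM. Further falls were Gtf2f2, Abhd11, Cldn15, Xpc, Lgals1 and Hebp1, with Srp54b and Mrgpra2b, whose near-identical copies make their counts uncertain. Mt2, Car1 and Gm26737 rested on few cells: 62.4%, 56.0% and 95.4% of their UMIs in Idh1-WT members were in the 5 richest cells.

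Leaving out a library ended some of these calls in edgeR. Without Idh1-R132H replicate 1 these included Atp9a, Abhd11, Xpc, Mrgpra2b, Rplp1 and Lgals1, and without Idh1-R132H replicate 2 Vim, Cdk5rap1, Cldn15, Rplp1, Slfn2, Akr1c13, Srp54b and Uty. Without Idh1-WT replicate 1 they included Cdk5rap1, Slpi, Atp9a, Slfn2 and Uty, and without Idh1-WT replicate 2 Slpi and Hebp1. Dmkn, S100a8, Trem3, Gt(ROSA)26Sor, Irf5 and Ly86 passed in each of these 4 fits, in which the number of calls was higher than with all 4 libraries. In members below the median Mpo level Irf5 (edgeR adjusted p = 0.105), Trem3 (0.0692) and Ly86 (0.0552) did not pass, and in members above it Slpi did not (0.169).

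Within members with Xist alone, 33 of 33 of these genes that were tested had the same sign as in all members, 25 passed and 32 had groups apart. Within members with Y-linked UMIs alone, which left 31 Idh1-WT replicate 1 cells, 30 of 32 had the same sign, 2 passed and 21 had groups apart. The genes were chosen from all members, so these are not independent counts. Over all genes, 35 of 9667 passed with Xist alone and 8 of 8629 with Y-linked UMIs alone. The share of all genes with groups apart was not counted within either kind of cell. In all members that share was 40.7%.

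Few genes passed in any list, where 0.103% of all genes tested rose and 0.216% fell. Of 35 monocyte programme genes tested 1 rose and 1 fell, with 25 higher in Idh1-R132H members and a median log2 change of 0.12, beside 0.01 over all genes. Of 17 primary granule genes 0 passed in either direction, with 5 higher and a median of -0.09. The genes at the centre of the granule programme did not pass: the log2 change was -0.05 for Elane (edgeR adjusted p = 0.663), 0.07 for Prtn3 (0.631) and -0.13 for Ctsg (0.406). Elane changed sign under other choices of cells, and Ctsg, at 5020 and 4881 CPM in Idh1-R132H members against 5738 and 5220 CPM in Idh1-WT members, turned on which Idh1-WT library was left out. Without Idh1-WT replicate 2 its log2 change was -0.21, and without Idh1-WT replicate 1 it was -0.04. Mpo, described only, was at 9192 and 8797 CPM in Idh1-R132H members and 9287 and 9246 CPM in Idh1-WT members. Ly6c2, also used by the rule, was at 2987 and 3135 CPM against 2564 and 2680 CPM, and F13a1 at 209.1 and 199.0 against 209.8 and 206.3 CPM.

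Of 18 secondary and tertiary granule genes 0 rose and 3 fell, with 5 higher and a median of -0.14. This was a larger share of falls than the 0.216% over all genes. The list was chosen with earlier results of these data known, and Slpi was also among the fixed genes. Of 29 interferon-response genes Slfn2 rose and 0 fell, with 25 higher and a median of 0.26. The membrane protein gene Ifitm3 was at 363 and 435 CPM in Idh1-R132H members and 274 and 286 CPM in Idh1-WT members (log2 change 0.53), which did not pass with edgeR (adjusted p = 0.175) and passed with DESeq2 (adjusted p = 0.0328). It also passed with edgeR within members with Xist alone (0.66, adjusted p = 0.0313), within those with Y-linked UMIs alone (0.46, adjusted p = 0.00481) and without either Idh1-R132H replicate. Without Idh1-WT replicate 1 (0.51, edgeR adjusted p = 0.679) or replicate 2 (0.54, adjusted p = 0.759) it did not pass. Of 24 sterol synthesis genes 0 rose and Fdps fell, with 2 higher and a median of -0.30. Of 22 glutathione and thioredoxin genes Gstm1 fell. Among 7 isocitrate dehydrogenase genes 0 passed, and Idh1 itself was at 92.0 and 84.8 CPM in Idh1-R132H members and 104.5 and 110.7 CPM in Idh1-WT members (log2 change -0.26, adjusted p = 0.119, edgeR); these gene-level counts do not separate the R132H allele from the normal one and so do not check the labels. None of 23 S phase, 22 G2 and M phase, 14 immediate early, 14 neutrophil fate, 7 class II or 7 NADPH oxidase genes passed in edgeR.

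**Figure D5:**
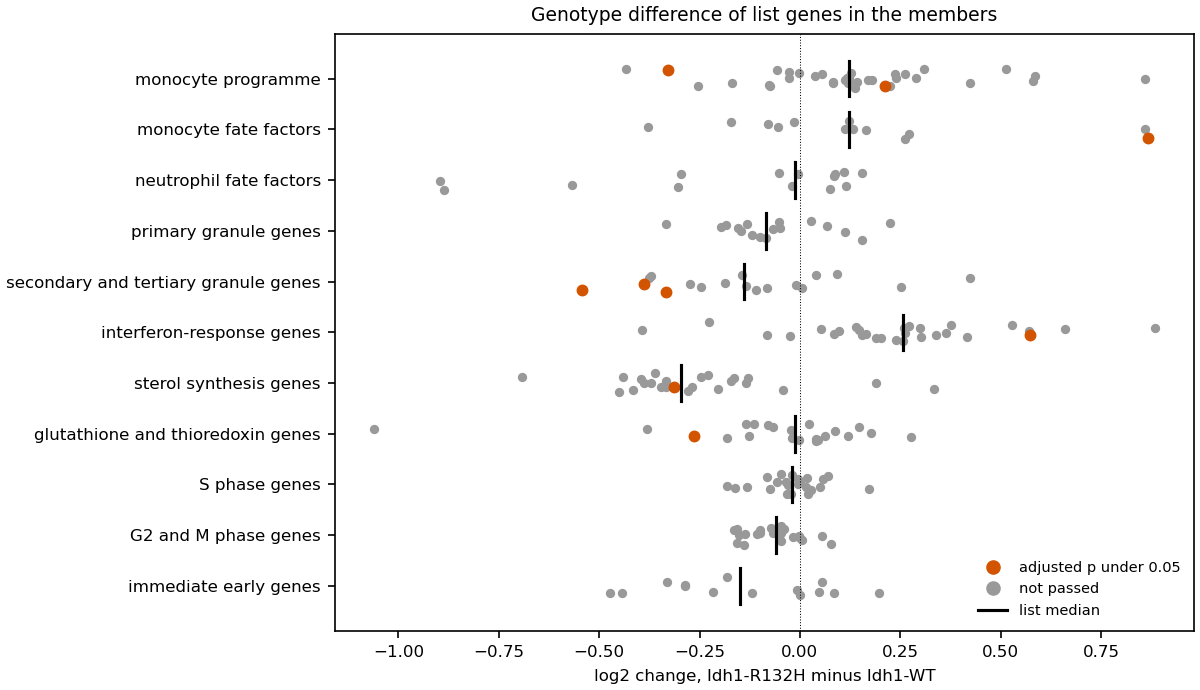
Log2 change, Idh1-R132H minus Idh1-WT, of the tested genes of 11 lists in the members; each point is 1 gene, orange where the edgeR adjusted p is under 0.05, and the bar is the list median. The medians of the interferon-response and sterol synthesis lists were 0.26 and -0.30, and few points in any list passed.

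Sums over markers of other cell types differed in level in the members. Mature neutrophil markers were at 172 and 165 CPM in Idh1-R132H members and 174 and 187 CPM in Idh1-WT members. Basophil and mast cell markers were at 58.2 and 97.0 against 61.5 and 78.3 CPM. Stem cell markers were at 47.9 and 45.7 against 44.6 and 45.1 CPM. The single gene Csf1r, for scale, was at 41.0 and 39.4 against 34.0 and 34.9 CPM. Among dendritic cell markers Bst2 alone was at 155 and 170 against 145 and 140 CPM. Summed dendritic cell markers were at 189 and 208 CPM in Idh1-R132H members and 174 and 167 CPM in Idh1-WT members, macrophage markers at 14.8 and 10.8 against 18.1 and 20.7 CPM, B cell markers at 49.4 and 46.0 against 51.2 and 54.5 CPM, and T and NK markers at 5.24 and 3.78 against 5.16 and 4.39 CPM. Stfa2, Mertk and Pax5 had 0 counts. Of 6 erythroid markers tested 1 fell, Car1, with 0 higher, and the sum was 69.7 and 85.2 CPM in Idh1-R132H members and 109.0 and 115.7 CPM in Idh1-WT members. Megakaryocyte markers summed to 20.5 and 46.3 against 16.9 and 12.6 CPM. Pf4 alone was at 10.1 and 34.6 against 9.1 and 7.0 CPM, high in Idh1-R132H replicate 2. Single genes also made up much of other sums. Retnlg of mature neutrophils was at 95.4 and 83.7 against 98.6 and 108 CPM. Mcpt8 of basophils was at 44.1 and 75.1 against 37.6 and 57.8 CPM, and Cd79b of B cells at 41.1 and 37.2 against 41.9 and 41.9 CPM. The part of these markers in the genotype results was not tested.

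Whether a genotype difference was larger in members than in a neighbouring set was tested as the difference of the 2 log2 changes, with the library as a block. Against the mixed Mpo cells 4 of 10628 genes passed (0.0376%). Dmkn was among them: in the mixed Mpo cells it was at 17.2 and 19.1 CPM in Idh1-R132H libraries and 17.2 and 16.4 CPM in Idh1-WT libraries, and the change in members was lower by 1.26 on the log2 scale (difference -1.26 ± 0.20 SE, edgeR adjusted p = 4.8e-05). Against the Mpo-low cells 8 of 10311 passed (0.0776%). The Slpi fall was larger in the Mpo-low cells, at 209.7 and 189.8 CPM in Idh1-R132H libraries and 417.3 and 437.1 CPM in Idh1-WT libraries, so that the difference was 0.69 ± 0.10 (SE, edgeR adjusted p = 2.6e-07). Against the cells without F13a1, a comparison added after the data were seen, 3 of 10679 passed (0.0281%). There Dmkn fell too, by 0.69 (61.8 and 61.0 CPM in Idh1-R132H libraries against 93.7 and 108.1 CPM in Idh1-WT libraries), and its difference from the members, -0.45, did not pass (edgeR adjusted p = 0.12), nor did those of Slpi (-0.05), Trem3 (-0.04), Irf5 (0.17) and S100a8 (-0.48; adjusted p = 0.992 or above for these 4).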

How the data were processed

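Single-cell RNA of 2 Idh1-R132H and 2 Idh1-WT mice was captured with the 10x 3' v2 kit, per the labels' protocols. The deposited matrices hold UMI counts per gene and barcode for 27998 genes, not normalized, with 474866 to 536955 barcodes a library. Per the submitters' processing notes Cell Ranger 4.0.0 and Seurat were used with GRCm38 (mm10); the role of each and the use of strand are not given in the sources used here. Gene positions are from GENCODE vM21 on GRCm38, in which 98.7% of features matched.

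The members, the gene lists and the neighbouring sets were chosen with earlier results of these data known. Counts were summed over the members of each library and tested with edgeR 4.0.16 (TMM factors, filterByExpr, robust quasi-likelihood, Benjamini-Hochberg over 10659 genes), with DESeq2 1.42.0 as an alternative; the 6 genes of the rule got no p. CPM are counts per 1000000 of the unscaled sum. Differences between sets came from 1 model with the library as block. Ratios between sets used genes at 10 CPM or more and a pseudocount of 1 CPM. Cells were thinned without replacement with a fixed seed. Scrublet called 0.292 to 1.67% of barcodes as doublets, and no cell was removed on it. Free RNA made up 0.611 to 0.796% of member UMIs. Replicates of 1 group differed by more than the counting of independent UMIs would give (chi-square per gene 2.37 for Idh1-R132H and 2.68 for Idh1-WT). This does not separate differences between mice from the sampling of unlike cells. On simulated counts the genotype test recovered 28.6% of log2 changes of 0.5, 86.6% of those of 1 and 98.5% of those of 2. For differences from the mixed Mpo cells it recovered 3.08% at 0.5 and 41.5% at 1. For differences from the Mpo-low cells these were 1.54% and 15.9%. The comparison with the cells without F13a1 was not simulated. The simulated counts gave every gene the same preset spread between libraries, which was not estimated from these data. They held no library effect shared between sets. The recovered shares therefore hold for that setting and may differ for the real counts. Named genes were the 10 largest called rises and falls with a log2 CPM of at least 5, up to 4 genes of each list by p and a fixed list of 20; further called genes are marked as chosen after their values were seen. Of the 34 called genes 1 is counted but not reported here.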

Additional observations from a re-analysis of the deposited data

Results flagged for a closer look

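Each value below is a difference of log2 changes, that in the members minus that in the neighbouring set, that passed edgeR's test of the difference itself. None of their causes was tested.

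Against the mixed Mpo cells, 4 genes differed. Dmkn differed by -1.26, being lower in Idh1-R132H members and at 17.2 and 19.1 CPM in Idh1-R132H mixed Mpo cells against 17.2 and 16.4 CPM in Idh1-WT ones. Ifitm3 differed by 0.42, with 507 and 527 CPM in Idh1-R132H mixed Mpo cells against 480 and 477 CPM in Idh1-WT ones. The members did not stand apart from the nearest set in Ifitm3. Its log2 change was 0.53 in members and 0.52 in the cells without F13a1, neither of which passed, and their difference, 0.02, did not pass. In the Mpo-low cells Ifitm3 rose by 0.26 (edgeR adjusted p = 0.0481), and the difference from members, 0.24, did not pass (adjusted p = 0.181). The microsomal glutathione transferase gene Mgst1 differed by -0.66: it was at 234.5 and 235.4 CPM in Idh1-R132H members and 236.7 and 224.5 CPM in Idh1-WT members, and at 63.2 and 57.2 CPM in Idh1-R132H mixed Mpo cells against 35.3 and 38.6 CPM in Idh1-WT ones. Car1 differed by -1.87, with 56.0% of its Idh1-WT member UMIs in 5 cells.

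Against the Mpo-low cells, 8 genes differed. Slpi differed by 0.69, being lower in Idh1-R132H in both sets and more so in the Mpo-low cells. Prtn3 differed by 0.43, with 506 and 552 CPM in Idh1-R132H Mpo-low cells against 635 and 756 CPM in Idh1-WT ones. The class II genes H2-Ab1 and H2-Aa differed by 0.83 and 0.88; H2-Ab1 was at 66.3 and 169.7 CPM in Idh1-R132H Mpo-low cells and 251.2 and 210.0 CPM in Idh1-WT ones, with Idh1-R132H replicate 1 far below the other 3, and H2-Aa at 50.2 and 154.0 against 213.2 and 196.9 CPM. Tmem245 differed by 2.64, with 4.48 and 4.30 CPM in Idh1-R132H Mpo-low cells against 36.0 and 23.1 CPM in Idh1-WT ones. Serp1 differed by -0.53, with 399 and 382 CPM in Idh1-R132H Mpo-low cells against 297 and 302 CPM in Idh1-WT ones. Plac8 differed by -0.29, with 2670 and 3062 against 2175 and 2495 CPM, and the peptidoglycan receptor gene Pglyrp1 by -0.59, with 158 and 155 against 124 and 136 CPM.

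Against the cells without F13a1, 3 genes of low level differed. Gm26737 differed by -3.75, most of its UMIs being in 5 cells. Dntt, the lymphoid terminal transferase gene, differed by 2.21, with 3.41 and 3.88 CPM in Idh1-R132H members against 1.99 and 0.976 CPM in Idh1-WT members, and 2.72 and 4.24 CPM in Idh1-R132H cells without F13a1 against 7.45 and 6.58 CPM in Idh1-WT ones. Wfdc17 differed by -1.33, with 15.9 and 21.2 CPM in Idh1-R132H cells without F13a1 against 7.61 and 4.33 CPM in Idh1-WT ones.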

How the results depend on the processing

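The count of 34 genes was 20 with DESeq2, 143 without the filter on low counts, 8 in members with Y-linked UMIs alone, 18 in members below the median Mpo level, 21 in members with at least 1 Irf8 UMI and 48 to 160 with 1 library left out; the count of 14 called list genes was 40 without the filter, 4 with Y-linked UMIs alone, 8 below the median Mpo, 23 with an equal number of members per library and 19 to 30 with 1 library left out. In the fit without the filter the median weight of the spread shared across genes was infinite, so gene-specific spread counted for little. With the replicate number as a block 21 genes passed, 13 of them among the 34. The deviations of Idh1-R132H replicate 1 and Idh1-WT replicate 1 from their group means correlated at -0.05. With 2 libraries a group, those of replicate 2 only mirror them. The labels tie no numbers to litters or days, so the pairing rests on the number alone. The other settings (RLE factors, unscaled totals, UMI minimum 2000 or 5000, at most 5% mitochondrial UMIs, 2 F13a1 or 6 Ly6c2 UMIs, 20 Mpo UMIs per 10000, thinned gate, doublet scores, Xist alone, Mpo above the median, free RNA, an equal number of members per library) gave 32 to 51. Of the 34 genes 15 were among those with the thinned gate, 19 with Mpo above the median, 25 with Xist alone, 29 with equal numbers and 31 to 34 in each of the rest; 12 were among those below the median Mpo, 16 with at least 1 Irf8 UMI and 2 with Y-linked UMIs alone.

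Log2 changes that turned sign were Car1 (0.087) with Y-linked UMIs alone, Gm26737 (3.23) below the median Mpo, Elane with the thinned gate (0.10), with Xist alone (0.01), below the median Mpo (0.012) and with at least 1 Irf8 UMI (0.042), Fcnb (0.028) with at least 1 Irf8 UMI and Cd63 (0.12) with the thinned gate. With 1 library left out Ccr2 ranged from -0.12 to 0.002 and Ly6c1 from -0.99 to 0.37. The cause was not tested.

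With 1 library left out, 11 to 27 genes passed against the mixed Mpo cells, 3 to 15 against the Mpo-low cells and 11 to 20 against the cells without F13a1, where 9 passed without the filter. The difference in the share of kept cells was -0.23 points with 2 F13a1 UMIs and -1.74 to 2.30 points with 1 library left out; that in the share of Mpo-bearing cells was 0.89 points with the thinned gate and -5.47 to 2.67 points with 1 library left out. Depth limits the rule: at 3000 UMIs per cell 5.94% of Idh1-R132H and 5.29% of Idh1-WT kept cells met it. With 2 libraries a group, a p above the threshold does not show that values are alike.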
